A study of Drosophila melanogaster with 2 samples.

Results

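The 6 genes described here encode the larval serum proteins (Lsp1alpha, Lsp1beta, Lsp1gamma and Lsp2) and the fat body proteins Fbp1 and Fbp2 of Drosophila melanogaster. They were found by searching the symbols of the deposited annotation, which returned 7 of the 18952 probe sets on the Affymetrix Drosophila 2 GeneChip. Of these, 6 name 1 member each, and the seventh names CG5335 beside Fbp1. The genes were selected on the same 2 arrays, because their signals were far lower in Ck1alphaRNAi than in control larvae, so the ratios below are a description and no test is given for them. One array was from larvae in which Dcg-Gal4 drove an RNAi hairpin against Ck1alpha, a casein kinase gene (Ck1alphaRNAi larvae), and the other from control larvae with Dcg-Gal4 over w1118 and no hairpin. Both groups therefore share the Dcg-Gal4 driver, which is active in the fat body and also in blood cells. Each group was 1 array made from 1 pool of 20 whole feeding mid-third instar larvae, labelled female and cultured for 6 days. The study reports raised hemolymph glucose and food aversion in Ck1alphaRNAi larvae, and calls those of the array non-feeding. The study's methods state that Ck1alphaRNAi cultures were started earlier than the control cultures to allow for delayed development. With 1 pool per genotype, larval stage, food intake and genotype cannot be told apart. The number of arrays limits the precision, and there is no replicate error.

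Larval serum proteins are hexamerins, large blood proteins built of 6 subunits that the fat body makes in quantity during the third instar and releases into the hemolymph. Before metamorphosis the fat body takes them up again and stores them as a source of amino acids for building the adult. Lsp1alpha, Lsp1beta and Lsp1gamma encode the interchangeable subunits of LSP1, and Lsp2 encodes the subunit of LSP2. Fbp1 encodes a fat body membrane protein that binds LSP1 for this uptake, and its gene is a known direct target of the ecdysone receptor. Fbp2 encodes a protein of the fat body related to alcohol dehydrogenase.

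Values are MAS5 signals, probe set intensities on a linear scale that were scaled before deposit to the same trimmed mean on both arrays, 500.02 signal units once 2% of the probe sets at each end were left out. Detection was set at 100 signal units on either array, which 9016 of 12585 named genes reached. As a background, the brightest of 17 tag controls, whose sequences are not from the fly, gave 53.3 on the Ck1alphaRNAi and 33.1 on the control array. Ck1alpha, the gene targeted by the hairpin, gave 2055 in Ck1alphaRNAi and 2665 in control larvae (ratio 0.771). The log2 ratio was -0.37, or -0.12 after median centring (each array divided by its median). Both are within the SD of 0.41 between probe sets of 1 gene. That SD does not measure the error between 2 arrays, and the RNA was not limited to the tissues where the driver is active. These arrays therefore do not settle whether Ck1alpha was knocked down. The RNA was from whole larvae, so fewer fat body cells and less RNA per fat body cell cannot be told apart.

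All 3 LSP1 subunit genes had lower signals in Ck1alphaRNAi larvae, by very different factors. Lsp1alpha gave 61.2 in Ck1alphaRNAi and 11255 in control larvae, 0.544% of control (183.9-fold lower, log2 ratio -7.52). Lsp1beta gave 761 and 27882, 2.73% of control (36.6-fold lower, log2 ratio -5.20). Lsp1gamma gave 2221 and 25122, 8.84% of control (11.3-fold lower, log2 ratio -3.50). The log2 ratios of Lsp1alpha and Lsp1gamma differed by 4.02. Because Lsp1alpha was close to background in Ck1alphaRNAi larvae, this difference is better given as at least 3.31 (9.95-fold), with Lsp1alpha set against a signal of 100. Lsp1beta lay between them on the log2 scale, 2.33 above Lsp1alpha (at least 1.62 against a signal of 100) and 1.70 below Lsp1gamma. These minimum differences allow only for the low end of the scale. Whether the high control signals of Lsp1beta and Lsp1gamma still rise in proportion to transcript was not tested. Whether the probe sets of these related genes pick up each other's transcripts was not tested either.

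Lsp2, the other hexamerin, gave 475 in Ck1alphaRNAi and 27757 in control larvae, 1.71% of control (58.4-fold lower, log2 ratio -5.87). Its ratio was between those of Lsp1alpha and Lsp1beta. On the control array Lsp1gamma, Lsp2 and Lsp1beta had signals of 25122 to 27882, near the top of that array's range, whose highest signal was 31540.

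Fbp1, the uptake receptor, gave 88.1 in Ck1alphaRNAi and 2290 in control larvae, 3.85% of control (26.0-fold lower, log2 ratio -4.70). The probe set that names CG5335 beside Fbp1 went the other way, with 1577 in Ck1alphaRNAi and 1217 in control larvae (ratio 1.30). Its transcript identifier is that of CG5335 alone, so it was not used as a measure of Fbp1. Fbp2 gave 60.8 and 16099, 0.377% of control (265.0-fold lower, log2 ratio -8.05), the lowest ratio of all 18952 probe sets. Lsp1alpha had the next lowest.

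**Figure D1:**
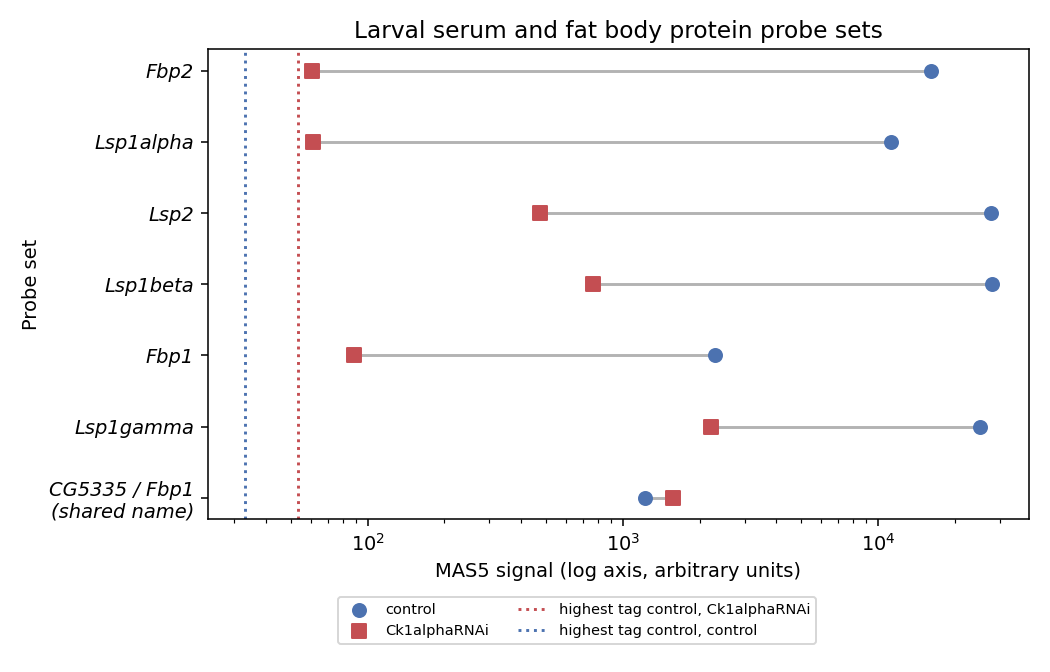
MAS5 signal (horizontal log axis) of each of the 7 probe sets on the control array (blue circles) and the Ck1alphaRNAi array (red squares), 1 array each, with dotted lines at the brightest tag control of each array. The 6 probe sets of single genes lie far to the left in Ck1alphaRNAi larvae, Fbp2 (60.8) and Lsp1alpha (61.2) almost at the tag control line of 53.3, whereas the probe set shared in name with CG5335 does not.

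On the control array all 6 genes were bright, from 69.3 times the tag control level for Fbp1 to 843.5 times for Lsp1beta. On the Ck1alphaRNAi array 3 of the 6 (Lsp2, Lsp1beta and Lsp1gamma) still had a signal of at least 100, whereas Fbp2, Lsp1alpha and Fbp1 lay only 1.14, 1.15 and 1.65 times above the tag control level. Their quotients are therefore best read against a minimum. Set against a signal of 100, Fbp2 was at least 161.0-fold lower, Lsp1alpha at least 112.6-fold and Fbp1 at least 22.9-fold.

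The ratios of the 6 genes ranged from -8.05 to -3.50 on the log2 scale, with a median of -5.53. The only technical spread that these arrays offer is that between probe sets of the same gene, an SD of 0.41 on the log2 scale over 436 genes, or 0.58 for a difference between 2 log2 ratios. From the lowest ratio up, the order was Fbp2, Lsp1alpha, Lsp2, Lsp1beta, Fbp1 and Lsp1gamma. Fbp2 and Lsp1alpha differed by 0.53, less than this spread, and with both near background their order is not settled. Lsp2 and Lsp1beta differed by 0.67, only just more than the spread. Lsp1beta and Fbp1 differed by 0.50, or 0.68 with Fbp1 set against a signal of 100. Lsp1alpha and Lsp2 differed by 1.65, which shrank to 0.95 against a signal of 100, and Fbp1 and Lsp1gamma by 1.20, which shrank to 1.02. This spread leaves out the differences between pools of larvae.

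All 6 members were at least 10-fold lower, or 5 of the 6 when each array was divided by its median, which left Lsp1gamma at a log2 ratio of -3.25. As background, 0.333% of the 9016 detected genes (30 genes, or 19 when counted from bounds) were at least 10-fold lower and 6.95% (627 genes) at least 2-fold lower. In the other direction 2.84% (256 genes) were at least 2-fold higher. Median centring turned this balance, with 371 genes at least 2-fold lower and 437 higher. Nothing is read from the members' count against these shares, since the members were picked on this contrast. Of 2511 genes with a control signal of at least 1000, 0.558% (14 genes) were at least 10-fold lower, and 6 of those 14 were the members.

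**Figure D2:**
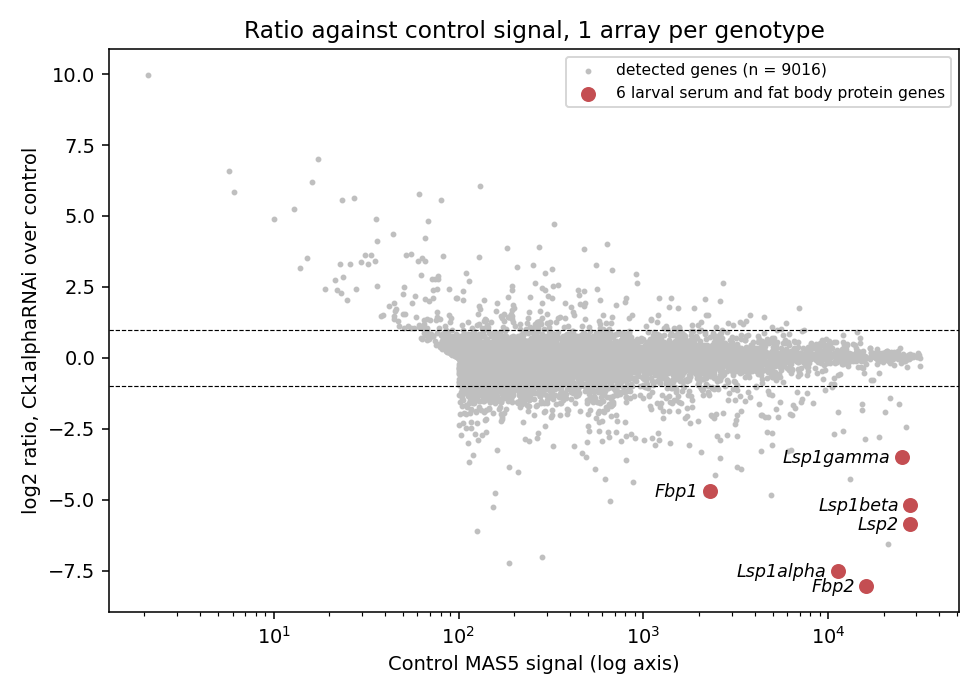
Log2 ratio of Ck1alphaRNAi over control (vertical axis) against control MAS5 signal (horizontal log axis) for 9016 detected genes (grey) and the 6 larval serum and fat body protein genes (red), with dashed lines at 2-fold. The 6 genes lie at log2 ratios of -8.05 to -3.50 and control signals of 2290 or more, where most genes lie between the dashed lines. The slanted left edge is made by the detection filter.

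Genes other than the members with a control signal of at least 1000 were ranked by ratio. The lowest were Obp99b, an odorant binding protein gene (225 against 21012, log2 ratio -6.55), the cytochrome P450 gene Cyp4e3 (log2 ratio -4.82) and CG34136 (log2 ratio -4.79). They were followed by CG16704, CG10962, Sgs1 of the salivary glue, Odc1 (ornithine decarboxylase 1), CG31778, CG13962 and the cuticle protein gene Cpr49Ac, at -4.28 to -3.29. Of these 10 genes, 8 had ratios below that of Lsp1gamma. Among the 10, Obp99b was the only one with a ratio below that of Lsp2. These 10 genes were not matched to the members on control signal. With the cut at 5000, the 3 of them that reach it stayed among the 10 lowest, and the cut itself removed the others.

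In the deposited Gene Ontology terms, which were looked up after the values had been seen, all 6 members carry the term lipid particle, from proteins found on purified lipid droplets. The 226 other detected genes with this term had a median log2 ratio of 0.02. Of them, 18 were at least 2-fold lower (6.95% over all detected genes) and 1 at least 2-fold higher (2.84%). Cyp4e3 alone was at least 10-fold lower (0.333% over all detected genes). The term nutrient reservoir activity is held by 5 genes, namely the 4 larval serum proteins and Fbp2. Storage protein import into the fat body is given for Fbp1 and for lqf, which encodes the endocytic adaptor epsin. The signal of lqf was 1605 in Ck1alphaRNAi and 2264 in control larvae (log2 ratio -0.50).

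The term larval serum protein complex is held by the 4 Lsp genes and by CG8100, annotated there by similarity alone. CG8100 gave 2.20 in Ck1alphaRNAi larvae, below the tag controls, and 284 in control larvae, 8.59 times the control array's level. It was at least 5.32-fold lower, set against the tag control level. In the reference annotation (Release 6 plus ISO1 MT), CG8100 is also the gene next to Fbp1.

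The 6 genes do not sit together in the genome. In that annotation 3 are on chromosome arm 3L (Lsp1gamma, Lsp2 and Fbp1), 2 on 2L (Lsp1beta and Fbp2) and 1 on the X (Lsp1alpha). The sources used here name no build for the array, so no positions are printed. The nearest measured genes on either side, up to 2 per side and 23 in all, mostly kept their signals. Of the 16 that were detected, 13 were within 2-fold, 3 at least 2-fold lower (6.95% over all detected genes) and none 2-fold higher. Their log2 ratios had a median of -0.05. Besides CG8100, the lower ones were CG13405, beside Lsp1gamma (36.9 against 132, at least 2.47-fold lower), and CG4438, near Fbp2 (144 against 311, log2 ratio -1.12). Beside Lsp1alpha, the cuticle protein gene Cpr11A gave 1709 and 1756. Beside Fbp1 on its other side, the transcription factor gene Sox21a gave 173 and 180.

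**Figure D3:**
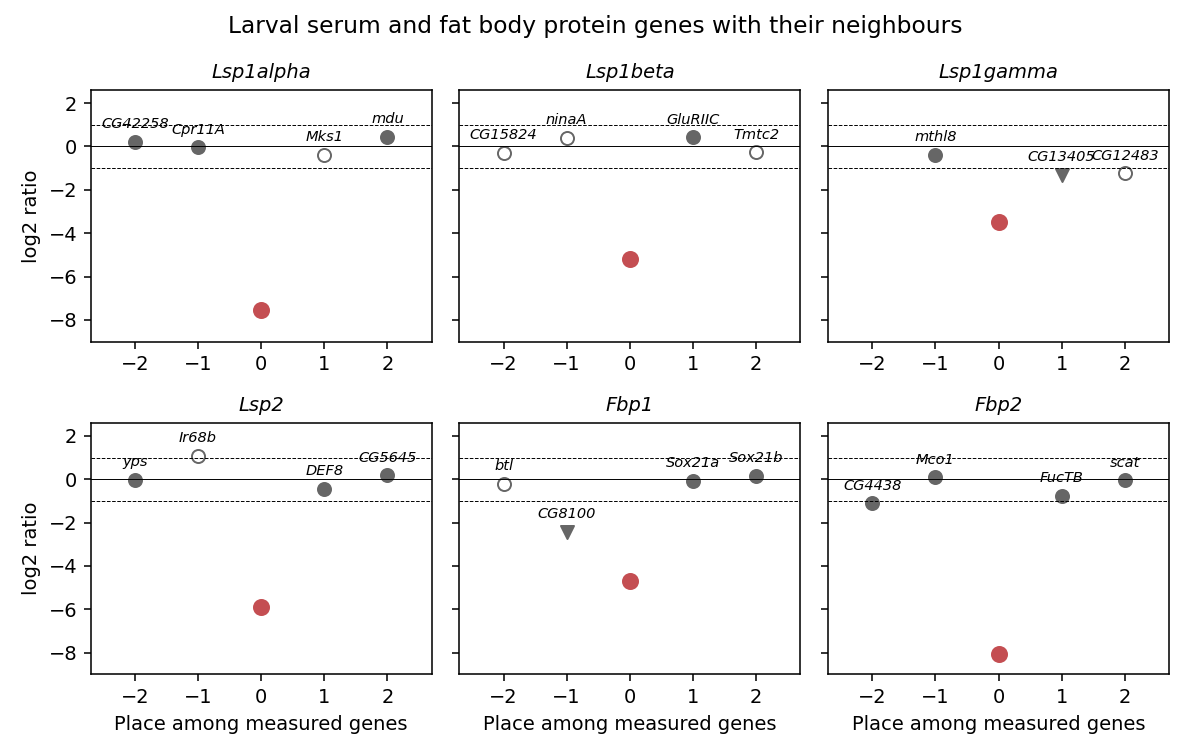
Log2 ratio of Ck1alphaRNAi over control for each of the 6 genes (red, place 0) and the nearest measured genes on each side, in the order of the reference annotation (places -2 to 2). Filled circles are detected neighbours, open circles neighbours below a signal of 100 on both arrays, triangles bounds against the tag control level, and dashed lines mark 2-fold. Most neighbours lie near 0, and CG8100, with a bound of -2.41, is the lowest.

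Prophenoloxidases belong to the same superfamily as hexamerins and are made by blood cells. PPO1 gave 1348 against 1353 and PPO2 2684 against 3039, both within 2-fold, and PPO3 gave 297 in Ck1alphaRNAi larvae against 10.1 in controls, at least 8.97-fold higher. For the dehydrogenase family of Fbp2, the brighter probe set shared by Adh and Adhr gave 16422 and 18584 (ratio 0.884), and neither Antdh nor Pdh was detected, so no ratio is read for them.

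Other secreted proteins of the hemolymph differed in both directions. Of 17 detected genes, 2 were at least 2-fold lower (6.95% over all detected genes), Obp99b and the lipoprotein gene Rfabg (7994 against 21504). Another 3 were at least 2-fold higher (2.84%). Among them were Idgf2, an imaginal disc growth factor (7944 against 3459), and Tep1, a thioester protein of immune defence (479 against 88.7). The 17 genes had a median log2 ratio of 0.20, against -0.02 over all detected genes. The machinery of protein export, which such proteins pass through, lay within 2-fold in all 13 detected genes. Its median log2 ratio was -0.07, or 0.18 after median centring, and its lowest member was prtp, a disulfide isomerase-like protein of the endoplasmic reticulum (3331 against 5149). The BiP chaperone gene Hsc70-3 gave 5522 and 7142, and Sec61alpha, a subunit of the translocation channel, 6032 and 5376.

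Among 12 detected transcription factors known to act on these genes or in the ecdysone response, 2 were at least 2-fold lower and none 2-fold higher. The shares over all detected genes were 6.95% and 2.84%. Log2 ratios of the 12 factors had a median of -0.08, which median centring turned to 0.18. The ecdysone receptor gene EcR gave 307 in Ck1alphaRNAi and 804 in control larvae (2.62-fold lower, 1 probe set), and its partner gene usp 558 and 574. The early ecdysone gene br gave 1138 and 2413 (2.12-fold lower, short of 2-fold after median centring). All 6 br probe sets were lower as deposited, 2 of them by at least 2-fold, with log2 ratios from -1.09 to -0.06. The signal of srp, a GATA factor of the fat body, was 1224 against 1417. The coactivator gene tai and Aef1, a repressor described at fat body enhancers, had log2 ratios of 0.15 and 0.12. Transcript levels of these factors do not measure their activity, and no test links them with the members.

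Of 11 detected ecdysone-inducible genes, 4 were at least 2-fold lower (6.95% over all detected genes). Another 1, Eip63E, was at least 2-fold higher (2.84%), with 1223 against 65.8. The 11 genes had a median log2 ratio of -0.26. The lowest were the glue genes Eig71Ee (1656 against 10703) and Sgs3 (4864 against 26298), both counted again among the salivary glue genes below. In ecdysteroid synthesis 1 of 5 detected genes was at least 2-fold lower (6.95% over all detected genes). It was spok, an enzyme gene of the prothoracic gland (138 against 286, short of 2-fold under each other scaling). The highest ratio was that of Ptth, the brain hormone gene that drives the gland (159 against 140). Of 10 detected salivary glue genes and their relatives, 7 were at least 2-fold lower (6.95% over all detected genes), Sgs1 and Sgs8 by most (15.2-fold and 7.32-fold). The related ng1 and ng3 gave log2 ratios of 0.03 and 0.01. The third instar cuticle genes were mixed, with Lcp2 at 4969 against 15312, Lcp3 at 26847 against 14237 and Lcp9 at 10258 against 12009. The part of these differences in the members' decrease was not tested.

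Fat body markers were mostly lower. Of 13 listed, all detected, 6 were at least 2-fold lower (6.95% over all detected genes) and none was 2-fold higher (2.84%). In all, 9 had a lower signal in Ck1alphaRNAi larvae. The 13 markers had a median log2 ratio of -0.76 and a summed signal of 61964 against 86176. AkhR, the receptor of the hormone Akh, and the insulin-like peptide gene Ilp6 were lowest (log2 ratios -2.99 and -2.56). BM-40-SPARC and Cg25C, basement membrane genes that are also expressed in blood cells, were among the 4 with a higher signal, at ratios of 1.61 and 1.37. Lsp1gamma, the least reduced member at -3.50, had a lower ratio than any of these markers. Nothing is read from this, since the members were picked for low ratios on these arrays. The part of these marker differences in the members' decrease was not tested.

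**Figure D4:**
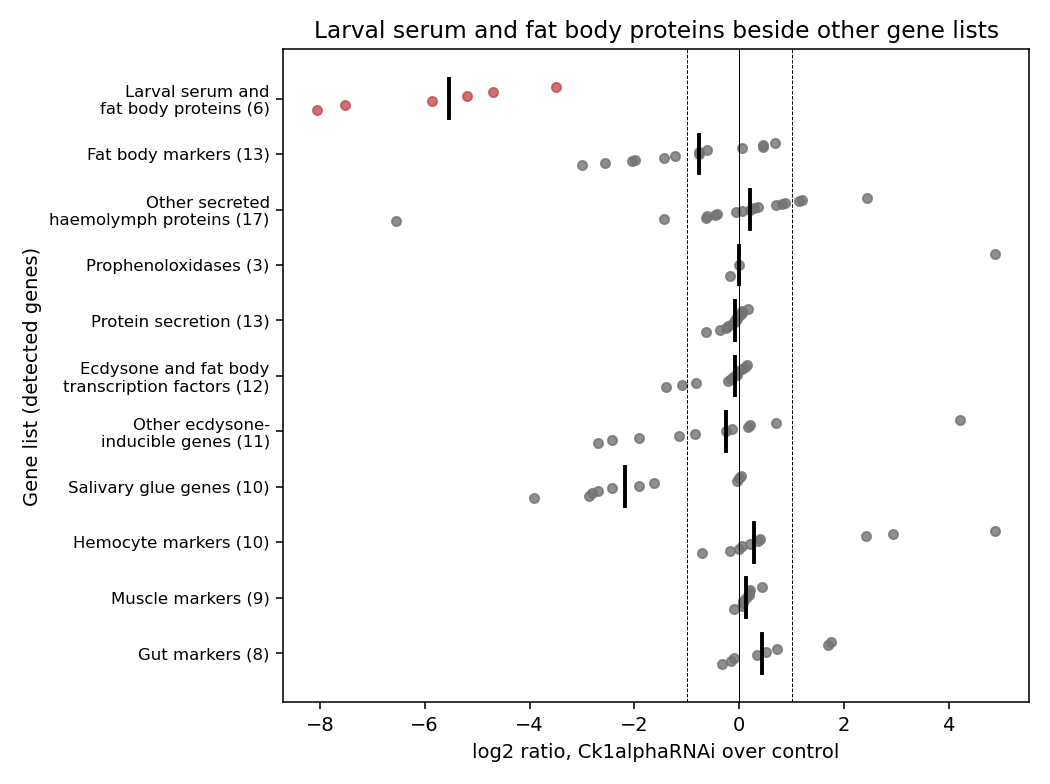
Log2 ratio of Ck1alphaRNAi over control for detected genes of 11 lists (points, number of genes in parentheses), with the median of each list as a black bar and dashed lines at 2-fold. The 6 larval serum and fat body protein genes (red), which were picked on this contrast, have a median of -5.53. The fat body markers have one of -0.76. PPO3, the highest prophenoloxidase and hemocyte point, is drawn at its plain quotient.

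Markers of other tissues gave the following values. Muscle markers were all within 2-fold (9 genes, median log2 ratio 0.12, summed signal 154545 against 139822). Of 8 gut markers 2 were at least 2-fold higher (2.84% over all detected genes), Jon44E and Mal-A1 (median 0.44, summed signal 106125 against 74605). Of 10 detected hemocyte markers 3 were at least 2-fold higher (2.84% over all detected genes) and none 2-fold lower (6.95%). The hemocyte markers had a median of 0.29 and a summed signal of 15033 against 11502, and NimC1, a phagocytosis receptor, was 7.62-fold higher. Neuron markers were within 2-fold in all 3 detected genes (median 0.18, summed signal over the 7 measured genes 1382 against 1298). Whether these values reflect the share of each tissue or its expression, and their part in the members' decrease, was not tested.

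The larvae are labelled female, yet transcripts of the male germline were detected on both arrays. Mst87F gave 271 in Ck1alphaRNAi and 682 in control larvae, and betaTub85D, the testis tubulin, 612 and 987. Of the 8 measured male and testis markers only 3 were detected, and the summed signal over all 8 was 1157 against 2110. All 3 yolk protein genes, which the fat body of adult females expresses, were below 100 on both arrays. This bears on Lsp1alpha, an X-linked gene known to escape dosage compensation, so that its output depends on the sex of the larva. The share of males in either pool, and its part in the Lsp1alpha log2 ratio of -7.52, was not tested.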

How the data were processed

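RNA of whole larvae was hybridized to 1 array per genotype. The authors deposited MAS5 signal intensity values (version 5, per the submitters' processing notes) (linear) and a fold change, the ratio of the 2 signals, which was not used. Another deposited table repeated these intensity values. The sources used here give no scanner files, detection calls or genome build. The members and all gene lists were chosen with earlier results of these data known.

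Probe sets were named from the deposited symbols and the Release 6 plus ISO1 MT reference table: 13869 had 1 symbol, 531 several names of 1 gene, 15 a transcript identifier, 596 several genes and 3941 no name. Each gene was represented by its probe set of highest mean signal. Log2 ratios had no pseudocount. Where 1 signal lay below the brightest tag control of its array, that level replaced it and the fold is a bound. Counts of genes past a fold use the plain quotient: from bounds, 19 detected genes were at least 10-fold lower. With 1 array per group no test was run.

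Besides the members and Ck1alpha, named genes were taken from the 2 highest and 2 lowest detected genes of each list, the 10 genes with the lowest ratios at a control signal of at least 1000, and up to 2 measured neighbours per side. The genes usp and srp, the separate br probe sets, and the annotation terms with their genes were chosen after their values were seen. Of the planned sequence features, chromosome arms and neighbours were looked up. Protein and promoter sequences were not analysed here. Alternatives were median centring, quantile normalization, loess (span 0.3), a pseudocount of 16, the second table, and other bounds, filters and probe set rules. The loess step was checked on simulated data and the bound step on set values. The quantile step was run on the simulated data without a check. The computations used scipy 1.17.1, statsmodels 0.14.6, pandas 2.3.3 and numpy 2.4.6 in Python 3.11.15, and matplotlib 3.10.9 for plots.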

Additional observations from a re-analysis of the deposited data

How the results depend on the processing

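All 6 members stayed at least 2-fold lower under every alternative run. Each stayed at least 10-fold lower too, except Lsp1gamma after median centring (-3.25) and Fbp1 with the probe set that also names CG5335. Log2 ratios moved beyond the probe set spread only with the bound of 100, to -7.33 for Fbp2 and -6.81 for Lsp1alpha, and, in an alternative chosen after seeing the data, to -2.16 for Fbp1 when its median took in the probe set that also names CG5335. Scaling moved the background. Median centring raised the median log2 ratio of all detected genes by 0.25 and gave 437 genes at least 2-fold higher and 371 lower, so that 54.1% of changed genes were higher, against 29.0% as deposited, 37.2% after quantile normalization and 42.0% after loess. A filter of 200 left 406 genes at least 2-fold lower. With no filter, 1383 were 2-fold lower, 734 2-fold higher and 96 at least 10-fold lower. Of 230 values for lists and for the 10 other genes of lowest ratio under alternatives, 9 moved. Median centring left 1 transcription factor, not 2, at least 2-fold lower, and spok was short of 2-fold under every scaling and with the pseudocount. With a control signal of at least 5000, 3 of the 10 other genes of lowest ratio were shared, the only ones of the 10 that reach that signal. No paired analysis was possible because each group has 1 array. Leaving out a replicate was not possible for the same reason. In Ck1alphaRNAi larvae Fbp2, Lsp1alpha and Fbp1 lay below 100, near the tag controls, which limits how exactly their ratios can be given.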
